A study of Mus musculus with 12 samples.

Results

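Of the 12 bulk RNA-seq libraries of mouse bone marrow in the series, 9 are described here: 4 with a high level of Mn1 and 5 Hopx wild-type libraries with a low one. Mn1 encodes a transcriptional coactivator, and overexpressing it in mouse marrow is a common way to model acute myeloid leukaemia. Libraries were placed by their measured Mn1 level in plain CPM (counts per 1e6 counts of the library). The high side holds every library above 10 CPM, which are those labelled MN1_WT replicate 3 and MN1_KO replicates 5, 7 and 8. The low side holds every Hopx wild-type library under 2 CPM, which are those labelled MN1_WT replicates 2 and 4 and aged_WT replicates 1, 6 and 7. The other 3, aged_KO replicates 3, 9 and 10, have a low Mn1 level but no wild-type Hopx, so they lie on neither side and are given only for comparison.

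All animals were labelled C57BL/6. The group aged_WT was labelled Hopx wild type at 18 weeks, aged_KO Hopx knockout at 18 weeks, MN1_WT Hopx wild type with MN1 overexpression at 16 weeks, and MN1_KO Hopx knockout with MN1 overexpression at 16 weeks. Each group has 3 libraries. The labels give neither the vector and promoter behind the MN1 overexpression, nor a blast count, a disease state or whether animals had received transplanted cells, so the high side is called Mn1-high and not leukaemic. They do not say whether the numbers are separate animals, so p-values measure the spread between these libraries. The counts come from a 4-group study deposited as 2 tables, 1 for the aged groups and 1 for the MN1 groups, each with 24444 genes.

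MN1 acts with the homeodomain proteins of the Hoxa cluster and their cofactor Meis1, which are active in blood stem and progenitor cells and are switched off as cells mature. When that programme stays on, myeloid progenitors keep dividing and do not complete differentiation. Gata2 is a zinc-finger factor needed for stem cell maintenance and for mast cell and basophil development. Hopx is a small homeodomain protein that does not itself bind DNA.

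Mn1 lies at chr5:111417362-111457033 (GENCODE M21 on GRCm38, plus strand), Hoxa9 at chr6:52223100-52231089 (minus), Meis1 at chr11:18879817-19018985 (minus) and Gata2 at chr6:88193891-88207032 (plus). The promoters of 3 of these markers are printed with those of Sox21 and Spib, 2 of the genes with the largest rises and falls in MN1_KO against aged_WT. Each run is the 250 bases before the most upstream RefSeq start on GRCm38.p6, written 5′ to 3′, with every CG dinucleotide in capitals. Spans are chr6:52227371-52227620 for Hoxa9, chr11:19018970-19019219 for Meis1, chr6:88193641-88193890 for Gata2, chr14:118237031-118237280 for Sox21 and chr7:44532072-44532321 for Spib. The Hoxa9 run lies inside the GENCODE span of its gene, and the Meis1 run overlaps the end of its span. For these genes the RefSeq start used here thus differs from the GENCODE one.
Hoxa9: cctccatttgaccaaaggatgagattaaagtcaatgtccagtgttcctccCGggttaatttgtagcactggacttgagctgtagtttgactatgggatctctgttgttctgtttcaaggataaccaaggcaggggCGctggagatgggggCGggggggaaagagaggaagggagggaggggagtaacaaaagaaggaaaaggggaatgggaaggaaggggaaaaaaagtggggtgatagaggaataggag
Meis1: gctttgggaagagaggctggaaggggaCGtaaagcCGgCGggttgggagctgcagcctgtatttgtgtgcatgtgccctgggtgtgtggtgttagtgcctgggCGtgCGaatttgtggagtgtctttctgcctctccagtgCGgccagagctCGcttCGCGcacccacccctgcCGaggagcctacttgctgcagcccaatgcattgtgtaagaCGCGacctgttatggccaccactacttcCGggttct
Gata2: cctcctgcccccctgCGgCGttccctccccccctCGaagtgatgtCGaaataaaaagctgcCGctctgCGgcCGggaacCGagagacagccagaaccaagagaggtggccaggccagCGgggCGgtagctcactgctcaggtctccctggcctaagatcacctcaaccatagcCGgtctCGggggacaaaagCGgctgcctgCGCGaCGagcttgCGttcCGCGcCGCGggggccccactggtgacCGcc
Sox21: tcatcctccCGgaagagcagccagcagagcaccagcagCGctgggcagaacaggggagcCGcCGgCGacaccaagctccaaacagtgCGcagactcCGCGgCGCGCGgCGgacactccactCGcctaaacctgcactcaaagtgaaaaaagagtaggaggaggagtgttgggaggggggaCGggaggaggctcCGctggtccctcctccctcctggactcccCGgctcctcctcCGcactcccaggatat
Spib: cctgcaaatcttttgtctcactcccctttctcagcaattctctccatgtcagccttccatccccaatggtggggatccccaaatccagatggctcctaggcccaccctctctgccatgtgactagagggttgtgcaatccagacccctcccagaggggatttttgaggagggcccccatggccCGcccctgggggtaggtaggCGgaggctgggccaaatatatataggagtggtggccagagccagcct
These runs hold 3 CG dinucleotides for Hoxa9, 13 for Meis1, 22 for Gata2, 17 for Sox21 and 2 for Spib. Over the 10740 of 13414 tested genes that matched a promoter, the median was 15. Among the 15 genes named for the largest rises, 12 matched and had a median of 10 (range 3 to 19). Among the 15 named for the largest falls, 13 matched and had a median of 2 (range 0 to 18).

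Mn1 itself, the measure that chose the sides, was at 36.4, 47.3, 46.3 and 22.1 CPM in MN1_WT replicate 3 and MN1_KO replicates 5, 7 and 8. On the low side it was at 0.395 (replicate 2) and 0.16 CPM (replicate 4) in MN1_WT, while aged_WT replicates 1, 6 and 7 had 1.18, 0.977 and 0.456 CPM. The lowest library inside the high side is therefore at 22.1 CPM and the highest of the low side at 1.18 CPM, with nothing between them. In the libraries labelled MN1_WT replicates 2 and 4 the Mn1 level did not exceed the highest of aged_WT, although their label gives MN1 overexpression. The labels do not say whether the human or the mouse form was introduced, and transcripts of a human form might not be counted as mouse Mn1, so a low value here is a low count of mouse Mn1 and does not settle whether MN1 was introduced. The 3 aged_KO libraries had 0.0704 to 0.181 CPM. No test is given for Mn1.

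Sex-linked transcripts also differed between the libraries. Xist, the RNA that coats the inactive X chromosome, was at 3353, 4011, 3480 and 587.5 TMM-scaled CPM in the Mn1-high libraries, taken in the order MN1_WT replicate 3 and MN1_KO replicates 5, 7 and 8. TMM is edgeR's correction for library composition, and all levels below are TMM-scaled CPM unless stated. In the libraries labelled MN1_WT replicates 2 and 4 it was at 17.6 and 2.37, and in aged_WT at 485.1, 688 and 502.7. The Y-linked helicase gene Ddx3y was at 26.1, 4.81, 7.56 and 2.49 in the Mn1-high libraries, at 87.3 and 87 in the other 2 MN1_WT libraries, with 0 to 0.0568 in aged_WT. All 4 Mn1-high libraries thus hold both Xist and Y-linked RNA, whereas each low library holds mainly 1 kind. The part of sex or of mixed cell sources in the results was not tested.

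Library totals ran from 16544407 to 28409046 expected counts, and the 10 most abundant genes took 4.9 to 12% of the Mn1-high libraries and 9.74 to 12.7% of the low ones. The marrow label was met by the secondary and tertiary granule genes of neutrophils, whose summed level was 14330 CPM or more in each of the 12 libraries. In these bulk samples, fewer cells of a type and less RNA per cell cannot be told apart.

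Hoxa9, whose protein drives self-renewal in many myeloid leukaemias, was at 120, 119, 83.3 and 29.7 CPM in the Mn1-high libraries. In aged_WT it was at 5.23, 4.66 and 4.58, in MN1_WT replicates 2 and 4 at 9.11 and 2.06, and in aged_KO at 3.99 to 5.5. Every Mn1-high library was above every other library. Meis1, the DNA-binding partner of HOXA9, gave 122, 99.4, 114 and 29.3 CPM on the high side against 4.39 to 8.55 on the low side. For Gata2 the high side read 664, 585, 536 and 329 CPM and the low side 36.4 to 79.3, with 13.7 to 20.7 in aged_KO. MN1_KO replicate 8 was the lowest of the high side for all 3 markers, as it was for Mn1.

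**Figure D1:**
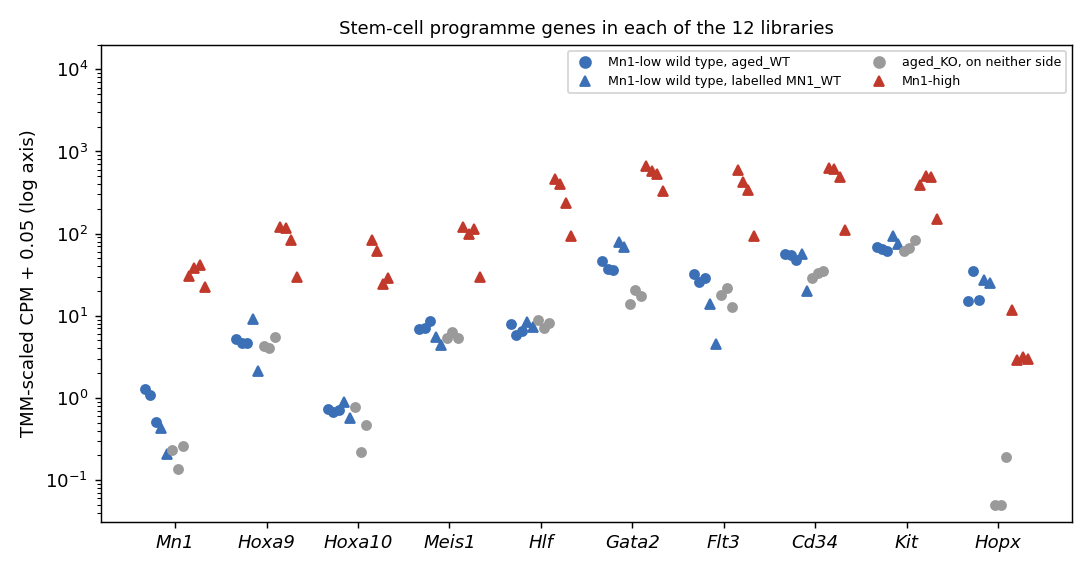
TMM-scaled CPM (plus 0.05, log axis) of 10 genes in each library: blue, the 5 Mn1-low wild-type libraries; grey, the 3 aged_KO libraries; red, the 4 Mn1-high libraries; triangles, the MN1 table; circles, the aged table. Hoxa9 sits between 29.7 and 120 CPM in the red libraries and between 2.06 and 9.11 in the blue ones, and Hopx is the one gene shown that is lower in red.

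Hopx, the gene deleted in the knockout, was at 11.8 CPM in MN1_WT replicate 3 and at 2.84, 3.12 and 2.93 in MN1_KO. On the low side it was at 15, 35.1 and 15.3 in aged_WT and at 27 and 25.3 in MN1_WT replicates 2 and 4. The aged_KO libraries had 0, 0 and 0.141, so the MN1_KO libraries held more Hopx reads than the knockout without MN1; the source of these reads was not tested. The Hopx genotype therefore differs between most of the high side and all of the low side, and MN1_WT replicate 3 is the only Mn1-high library labelled wild type.

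Because the sides were chosen on a measured value, the 4 against 5 comparison is described and not tested. The test uses groups set by the labels, MN1_KO against aged_WT (3 libraries each, edgeR's quasi-likelihood test, Benjamini-Hochberg adjusted p under 0.05). It joins MN1, the Hopx genotype, 16 against 18 weeks and the deposited table, which cannot be told apart in it. MN1_WT replicate 3 against replicates 2 and 4 shares no library with the test and has the same labels, genotype and table on both sides. It is not a matched contrast, because replicate 3 was set apart by its measured Mn1 level and stands alone on its side. Sex-linked RNA differed too, with Xist at 3353 CPM in replicate 3 against 17.6 and 2.37 in replicates 2 and 4. Ddx3y was at 26.1 CPM against 87.3 and 87. Values of this comparison are described beside the tested ones, and the part of sex or cell source in them was not tested.

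Of 13414 genes tested, 1929 rose in MN1_KO (14.4%) and 1583 fell (11.8%), 717 and 652 of them by at least 4-fold. Without TMM scaling, 65.4% of the changed genes were higher in place of 54.9%, and the median log2 fold change over all genes was 0.22 in place of 0.03. Leaving out aged_WT replicate 1, 6 or 7 left 1603, 1285 or 1552 changed genes of the 3512. Leaving out MN1_KO replicate 7 left 1821, and leaving out MN1_KO replicate 8 gave 8152. Among 13421 genes described over the 9 libraries, all 4 Mn1-high libraries were above all 5 low ones for 1999 (14.9%) and below all 5 for 1763 (13.1%), or 2533 and 1246 without TMM. Within the MN1 table, where the low side is MN1_WT replicates 2 and 4, the counts were 2943 (21.9%) and 2816 (21%), or 3563 and 2192 without TMM. Single libraries moved the counts of gene list members too, and where 6 counts are given for a list they are those without aged_WT replicates 1, 6 and 7 and MN1_KO replicates 5, 7 and 8, in that order. Counts of list members are to be read beside the shares over all genes given in this paragraph.

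MN1_WT replicate 3 was at least 2-fold above both other MN1_WT libraries for 1433 genes (10.7%) and at least 2-fold below both for 926 (6.9%), or 1870 and 557 without TMM. Of 1324 described genes that rose at least 2-fold in MN1_KO, it was above both in 802 (60.6%) and below both in 11. Of 1054 that fell at least 2-fold, it was below both in 360 (34.2%) and above both in 9. Replicate 3 was set apart by its Mn1 level and also differed from both in sex-linked RNA. The cause of the shared directions was not tested.

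**Figure D2:**
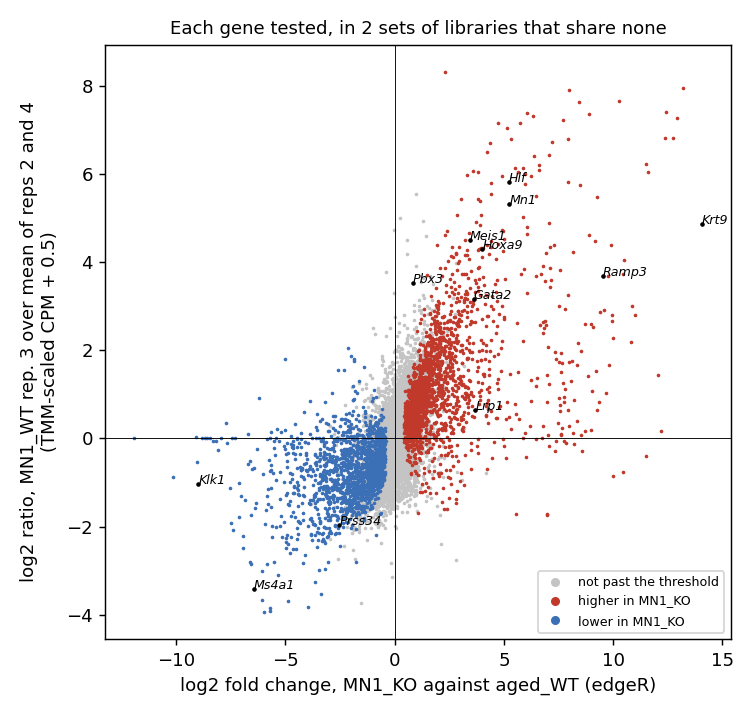
Each tested gene by its log2 fold change in MN1_KO against aged_WT (horizontal) and its log2 ratio in MN1_WT replicate 3 over the mean of replicates 2 and 4 (vertical, TMM-scaled CPM plus 0.5). Red genes rose and blue genes fell in the test; Hoxa9, Meis1, Gata2 and Hlf lie high on both axes, Pbx3 is high only on the vertical one, and Lrp1 mainly on the horizontal one.

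The list of Hoxa genes, Meis1 and Pbx3 has 13 members, of which 3 did not pass the filter on low counts. A gene can pass it through the group where it is high, so counts over passing members describe them only. Of the 10 that passed, 8 rose in MN1_KO, none fell, and the median log2 fold change was 3.25 against 0.03 over all genes. With 1 library left out, 5, 5, 5, 7, 5 and 11 members rose, of 10 or 11 that passed the filter. Over the 9 libraries these 10 were without overlap and higher. Hoxa10 showed the widest gap in fold among the members with more than 10 CPM in every Mn1-high library. It was at 83, 61.1, 24.6 and 29 CPM on the high side against 0.514 to 0.843 on the low side, and rose by 5.87 ± 0.46 (log2, SE; edgeR adjusted p = 0.00127). Hoxa9 rose by 4.02 ± 0.51 (adjusted p = 0.00388) and Meis1 by 3.44 ± 0.50 (adjusted p = 0.00541).

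Nearer the 3′ end of the cluster, Hoxa3 was at 7.66, 10.3, 7.9 and 2.36 CPM in the Mn1-high libraries and at 0.158 to 0.662 in the low ones, a rise of 3.79 ± 0.67 in MN1_KO (edgeR adjusted p = 0.00954). Hoxa5 and Hoxa7 rose by 3.05 ± 0.67 and 3.06 ± 0.65, and Hoxa4 by 2.19 ± 0.64. The calls for Hoxa4, Hoxa5 and Hoxa7 were lost without any 1 aged_WT library and without MN1_KO replicate 7, that for Hoxa4 also without MN1_KO replicate 5, and Hoxa5 was at 2.39 without MN1_KO replicate 5. At the 5′ side, Hoxa11 was at 16.6, 13.7, 2.39 and 13.3 CPM against 0 to 0.146. Its order among the high libraries differed from that of Hoxa9, with MN1_KO replicate 7 lowest. Hoxa2 did not pass (2.10 ± 0.66, adjusted p = 0.0569) but was higher without overlap.

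Pbx3, a homeodomain partner of MEIS1, was high in 1 library. It stood at 114 CPM in MN1_WT replicate 3, at 13.6, 24.1 and 10.7 in MN1_KO and at 8.35 to 9.88 on the low side, so its place above the low side rests on small differences outside replicate 3. It did not pass in MN1_KO (0.82 ± 0.31, edgeR adjusted p = 0.0982). Of 10 Hoxb genes 2 passed the filter, and they moved against the Hoxa genes. Hoxb4, which expands stem cells when overexpressed, was at 2.3, 0.769, 0.726 and 0.393 CPM on the high side, at 5.7 to 7.58 on the low side and at 8.37 to 10.3 in aged_KO. It fell by 3.29 ± 0.34 (adjusted p = 0.0021), and Hoxb3 fell by 4.60 ± 0.49 (adjusted p = 0.0023).

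The 7 factors known as the stem cell heptad, which bind enhancers together in blood progenitors, did not move together. Gata2 rose by 3.61 ± 0.27 (edgeR adjusted p = 0.00118) and Erg by 1.92 ± 0.22 (adjusted p = 0.00304), from 30.3 to 60.4 CPM on the low side to 217, 140, 149 and 88. Runx1 was at 188, 183, 113 and 55.5 CPM on the high side and at 74 to 83.4 on the low side, so MN1_KO replicate 8 lay below the low side while the other 3 lay above it. Runx1 (0.66 ± 0.39), Lmo2 (0.30 ± 0.18) and Tal1 (0.18 ± 0.23) did not pass. Neither did Lyl1 at -0.20 ± 0.33, which was 0.03 without MN1_KO replicate 5, nor Fli1 at -0.06 ± 0.18, which was 0.15 without TMM scaling and 0.08 without MN1_KO replicate 8.

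Of 20 other stem and progenitor regulators, 17 passed the filter. In MN1_KO 10 of these rose and none fell, where 14.4% of all genes rose and 11.8% fell. Their median log2 fold change was 2.08. With no filter beyond 1 count, 10 of 19 members rose, 1 fell and the median was 1.29. The 10 became 5, 4, 4, 7, 6 and 13 with 1 library left out. Hlf, a leucine zipper factor found in long-term stem cells, was at 465, 400, 237 and 94.5 CPM on the high side and at 5.78 to 8.23 on the low side. It rose by 5.21 ± 0.56 (edgeR adjusted p = 0.00252), and its level in aged_KO, 7.13 to 8.73, was that of the low side. Hmga2, a chromatin protein of fetal stem cells, was at 134, 55.4, 29.9 and 10.7 CPM against 0.194 to 1.69. Its rise was 6.59 ± 0.75, or 5.93 without MN1_KO replicate 5. Msi2, an RNA-binding protein of stem cells, was at 414, 323, 240 and 89.3 CPM against 30.8 to 45.1 and rose by 2.60 ± 0.45 (adjusted p = 0.00918). In Hlf, Hmga2 and Msi2 the 4 high libraries fell in 1 order, with MN1_WT replicate 3 highest and MN1_KO replicate 8 lowest.

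Mecom and Myb were added after their values were seen. Mecom, which encodes the stem cell factor EVI1, was at 27.3, 13.4, 43 and 5.63 CPM against 0.804 to 1.17. Myb, a driver of progenitor growth, was at 937.1, 1396, 1050 and 321 CPM against 186.7 to 294.1, so that MN1_KO replicate 8 lay just above MN1_WT replicate 2.

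Of 21 surface genes of stem and progenitor cells, 7 were higher and 6 lower in MN1_KO, against 14.4% and 11.8% over all genes. The 7 became 2, 2, 2, 5, 3 and 10 with 1 library left out and 2 in 1 fit of all 12 libraries, and the 6 became 3, 4, 3, 4, 4 and 7. Flt3, the receptor of FLT3 ligand, was at 599, 425, 335 and 94.7 CPM on the high side, at 26.1 to 32.2 in aged_WT and at 13.7 and 4.43 in MN1_WT replicates 2 and 4. It rose by 3.32 ± 0.53 (edgeR adjusted p = 0.007), a call lost in 1 fit of all 12 libraries. Kit, the stem cell factor receptor, was at 386, 504, 485 and 152 CPM against 62 to 93.9 and rose by 2.55 ± 0.44 (adjusted p = 0.009). Cd34, added after its values were seen, was at 632, 608, 493 and 110 CPM against 20 to 56.1.

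Among 16 cytokine receptors, 4 rose and 3 fell, or 3, 2, 3, 4, 3 and 6 and 2, 2, 2, 2, 2 and 6 with 1 library left out. Over all genes 14.4% rose and 11.8% fell, and several of these counts were near those shares. Lifr, the leukaemia inhibitory factor receptor, was at 4.14, 3.24, 2.82 and 4.28 CPM against 13.2 to 26.6 and fell by 2.76 ± 0.25 (edgeR adjusted p = 0.00154). Ifngr1, an interferon gamma receptor chain, was at 424, 348 and 455 CPM in MN1_KO against 208 to 211 in aged_WT, and at 220 in MN1_WT replicate 3 against 192 and 211 in replicates 2 and 4. Of 14 antigens used to follow myeloid leukaemia, 1 rose and 4 fell, and the 4 became 3, 2, 2, 3, 2 and 8 with 1 library left out. Cd7, a T cell and progenitor antigen, was at 7.34, 3.58, 5.17 and 6.9 CPM against 13 to 40.3 and fell by 2.65 ± 0.29 (adjusted p = 0.00258). Cd33, a myeloid sialic acid receptor, was at 211, 440 and 408 CPM in MN1_KO and at 107 to 190 in aged_WT, but at 128 in MN1_WT replicate 3 against 203 and 238 in replicates 2 and 4. Its rise of 1.33 ± 0.34 was lost without any 1 aged_WT library and without MN1_KO replicate 7.

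Named next are genes from the 15 with the largest rises among those at a mean log2 CPM of at least 3 and without overlap. Several had no count in aged_WT. Gria2, a glutamate receptor subunit of neurons, was at 617, 260, 322 and 51.4 CPM in the Mn1-high libraries. The 3 aged_WT libraries held 1 count in all, a ratio of 12500 for MN1_KO with an exact 95% counting interval of 2250 to 494000. Sox21, a neural transcription factor, was at 71.6, 29.5, 39.6 and 44.6 CPM with 0 counts in aged_WT, so it was at least 716-fold higher against a floor of 3 counts over the group. Krt9, a keratin of palm and sole skin, was at 14, 56.6, 60 and 169 CPM and at 0 in every other library of the series, at least 1760-fold higher in MN1_KO. These intervals and floors cover counting error only.

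Others at 0 in aged_WT were Susd5 (at least 609-fold), Unc13c, a synaptic vesicle priming factor (598), Hs3st5, a heparan sulfate sulfotransferase (435), Fam155a (348) and the somatostatin receptor Sstr1 (296). B4galnt3 had 2 counts in aged_WT, a ratio of 1680 (interval 464 to 13900). In 1 fit of all 12 libraries the calls for Sox21, Susd5, Unc13c, Fam155a and Sstr1 were lost. Their highest library varied. Unc13c, Susd5, Fam155a and Sstr1 were highest in MN1_WT replicate 3, at 120, 106, 38.5 and 50.1 CPM. Hs3st5 and B4galnt3 were highest in MN1_KO replicate 8, at 44.9 and 90 CPM, against 1.43 and 8.73 in MN1_WT replicate 3.

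Small amounts of the same transcripts were found in the MN1 table's low libraries. Gria2 was at 2.72 and 1.27 CPM in MN1_WT replicates 2 and 4 against 0 to 0.0509 in aged_WT and 0 in aged_KO. Sox21 was at 0.153 and 0.119, and Susd5 at 0.536 and 0.356. Ramp3, a partner of the calcitonin receptor family, was at 10.9 and 0.237, beside 77.3, 263, 312 and 501 in the Mn1-high libraries. Whether these reads came from cells or from neighbouring libraries was not tested.

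Sfrp2, a secreted WNT modulator, was at 232, 80.3, 170 and 152 CPM against 0 to 1.07 on the low side. Esyt3, a membrane tether, was at 19.6, 99.8, 112 and 205 against 0 to 3.98, with the 3.98 in MN1_WT replicate 2. Meis2, a relative of Meis1, was at 3.41, 27, 178 and 16.2 CPM against 0 to 0.153, and Dlk1, a NOTCH-like fetal protein, at 6.72, 104, 79.9 and 5.94 against 0 to 0.146. These 4 genes rose in MN1_KO by 10.28 ± 0.62, 10.88 ± 0.53, 9.95 ± 1.48 and 9.74 ± 1.47 (edgeR adjusted p = 0.000738, 0.000402, 0.00559 and 0.00583). Meis2 was at 8.20 without MN1_KO replicate 7 and at 9.34 without aged_WT replicate 6, Dlk1 at 10.93 without aged_WT replicate 6 and Sfrp2 at 11.20 without aged_WT replicate 7.

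**Figure D3:**
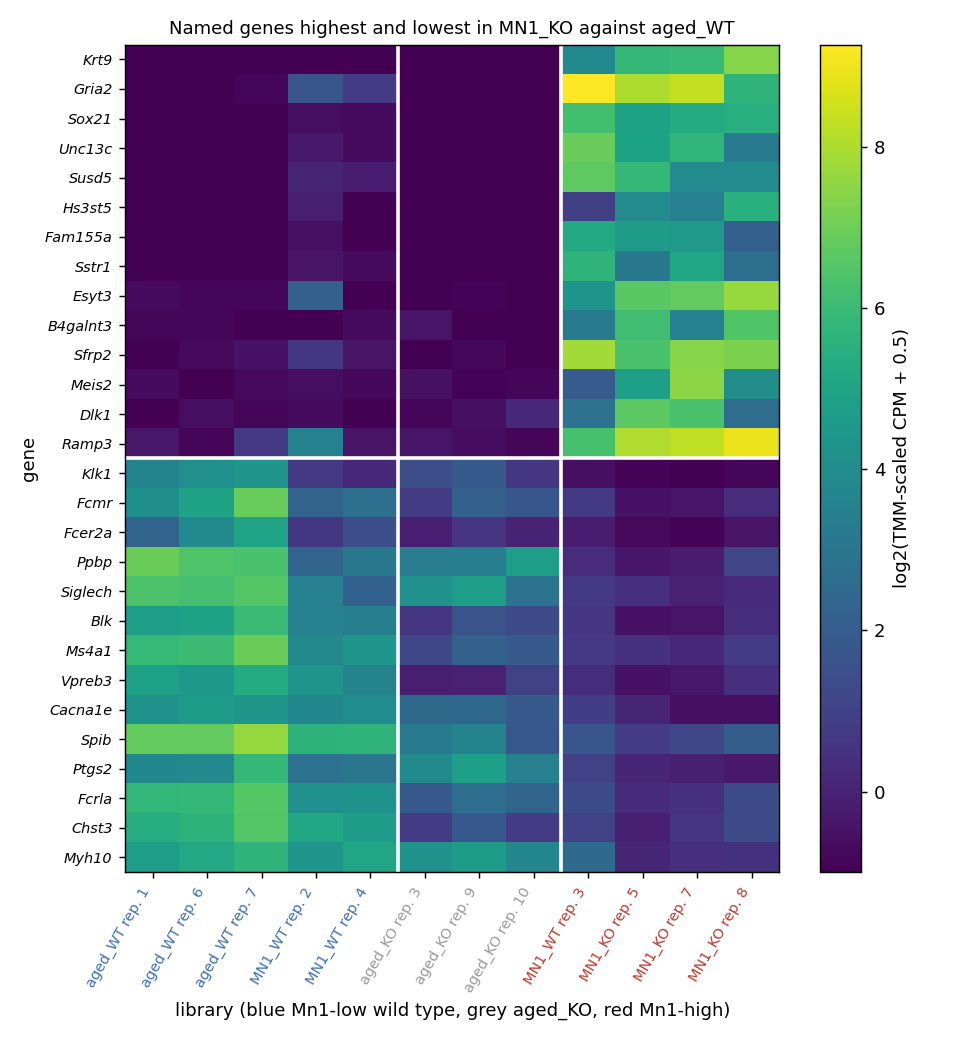
Heatmap of log2(TMM-scaled CPM plus 0.5) for named genes that rose most (above the white line) and that fell most (below it) in MN1_KO against aged_WT. Columns are the 12 libraries, with the 5 Mn1-low wild-type libraries at the left, the 3 aged_KO libraries in the middle and the 4 Mn1-high libraries at the right, where Krt9 and Gria2 are seen and Ms4a1 and Siglech are faint.

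The 4 Mn1-high libraries were not alike. Of the 1999 genes higher without overlap, MN1_KO replicate 8 was the library nearest the low side in 1127 (56.4%), MN1_WT replicate 3 in 352 (17.6%), MN1_KO replicate 5 in 294 and MN1_KO replicate 7 in 226. Of the 1763 lower genes, replicate 8 was nearest in 779 (44.2%) and MN1_WT replicate 3 in 592 (33.6%). Replicate 8 held the most RNA of mature myeloid cells on the high side, with a summed level of 24 monocyte and macrophage genes of 6473 CPM against 1630 to 3446 in the other 3. For the 17 secondary and tertiary granule genes of neutrophils the sums were 66800 against 14330 to 39430 CPM. Yet it was the highest library for Krt9, Esyt3, Ramp3, Hs3st5 and B4galnt3. Without it, the genes without overlap numbered 3770 higher and 3420 lower, though leaving out any library can only keep or raise these counts.

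Lrp1, a scavenger receptor of macrophages, and Stfa2l1, a stefin of neutrophils, were high in MN1_KO and not in MN1_WT replicate 3. Lrp1 was at 1744, 1695 and 3191 CPM in MN1_KO, at 228.5 in MN1_WT replicate 3, at 136.4 to 245.4 on the low side and at 238 to 362.4 in aged_KO. Its rise was 3.68 ± 0.39 (edgeR adjusted p = 0.00241). Stfa2l1 was at 253.4, 688.7 and 2325 CPM in MN1_KO but at 18.3 in MN1_WT replicate 3, below the low side's 28.3 to 86.6. It rose by 4.21 ± 0.85, or 2.98 without MN1_KO replicate 8, and lost its call without any 1 aged_WT library. With 1 Mn1-high wild-type library, whether MN1_KO differs from it was not tested.

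Of 23 B cell genes, 21 fell in MN1_KO and none rose, with a median log2 fold change of -4.96, and 20 were lower without overlap. With 1 library left out, 20 or 21 fell. Ms4a1, which encodes CD20, was at 0.64 to 1.27 CPM on the high side against 13.8 to 123 and fell by 6.44 ± 0.45 (edgeR adjusted p = 0.00112). Rag1, which cuts immunoglobulin genes in pro-B and pre-B cells, was at 3.79, 1.27, 3.42 and 1.44 CPM against 41.9 to 69.5 and fell by 4.91 ± 0.41 (adjusted p = 0.00143). The adaptor Blnk fell by 4.50 ± 0.37 (adjusted p = 0.00136), from 17.6 to 62.4 CPM on the low side to 1.41 to 3.31.

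B cell genes were low in the Hopx knockout without MN1 too. The summed level of the 23 B cell genes was 79.9 to 231 CPM in the Mn1-high libraries, 492.7 to 1952 on the low side and 105 to 130 in aged_KO. In the test the part of Hopx in this fall therefore cannot be told apart from that of MN1. Within the Hopx wild-type libraries of the MN1 table, MN1_WT replicate 3 had a sum of 231 CPM against 661.3 and 492.7 in replicates 2 and 4, and was at least 2-fold below both for 17 of the genes. Not all early lymphoid genes were low: Il7r, the interleukin 7 receptor, added after its values were seen, was at 126, 62.7, 60.8 and 9.74 CPM against 23.5 to 50.1, so MN1_KO replicate 8 and the other 3 lay on opposite sides of the low libraries.

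Of 11 plasma cell genes, 9 fell in MN1_KO and none rose. Their summed level was 304.4 to 463.9 CPM on the high side and 1542 to 1966 in aged_WT. It was 632.3 and 688.5 in MN1_WT replicates 2 and 4, and 630.6 to 925.9 in aged_KO. Within the MN1 table, 7 were lower without overlap, against 21% over all genes. MN1_WT replicate 3 was at least 2-fold below both other MN1_WT libraries for 2 of them, against 6.9% over all genes. Irf4, a factor of plasma and dendritic cells, was at 2.48 to 6.37 CPM against 31.2 to 70.5 and fell by 4.46 ± 0.20 (edgeR adjusted p = 0.000402), with 6.98 to 11.8 in aged_KO. Of 16 dendritic cell genes, 7 fell and 1 rose, and the 7 became 5, 5, 5, 7, 5 and 11 with 1 library left out. Within the MN1 table, 9 were lower and 3 higher without overlap, against 21% lower and 21.9% higher over all genes. Their summed level was 1211, 802.7, 744 and 595.3 CPM on the high side and 1121 to 1625 in aged_WT, but 573.7 and 605.5 in MN1_WT replicates 2 and 4, so MN1_WT replicate 3 was above both of these. The aged_KO libraries had 412.9 to 577 CPM, so in the test the part of Hopx cannot be told apart from that of MN1. Siglech, the marker of plasmacytoid dendritic cells, was at 1.18, 0.836, 0.47 and 0.699 CPM, at 74.9 to 93.3 in aged_WT and at 10.6 and 4.12 in MN1_WT replicates 2 and 4. It fell by 6.92 ± 0.26 (adjusted p = 0.000278), and aged_KO had 7.13 to 26.1. Of 10 MHC class II genes, 6 fell in MN1_KO, and within the MN1 table, 5 were lower and 3 higher without overlap, against 21% and 21.9% over all genes. The sum of the 10 was 287.8 to 423.7 CPM on the high side, 724.1 to 3478 on the low side and 267.3 to 418.6 in aged_KO. The part of Hopx in their fall cannot be told apart from that of MN1 in the test. Cd74, the invariant chain, was at 95.5, 51.1, 51.4 and 79.7 CPM on the high side against 298.5 to 1551, and at 105.9 to 169.6 in aged_KO. Spib, a factor shared by B cells and plasmacytoid dendritic cells whose promoter is printed above, was at 1.24 to 3.58 CPM against 49.8 to 198 and fell by 5.99 ± 0.51 (adjusted p = 0.00145).

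Of 23 T and NK cell genes, 7 fell and 2 rose in MN1_KO, and the 7 became 6, 6, 6, 6, 5 and 12 with 1 library left out. Over the 9 libraries 4 were lower and none higher without overlap, where 13.1% of all genes were lower and 14.9% higher. Within the MN1 table, 15 were lower and none higher, against 21% lower over all genes. Lef1, a factor of early T and B cells, was at 3.76, 1.57, 1.49 and 1.18 CPM against 5.19 to 19.2 and fell by 2.21 ± 0.28 (edgeR adjusted p = 0.00385). Gzmb, a granzyme of killer cells, was at 19.6, 35.8 and 30.3 CPM in MN1_KO against 2.13 to 5.8 in aged_WT and rose by 2.87 ± 0.41, but was at 12 in MN1_WT replicate 3 against 17.8 and 38 in replicates 2 and 4. The summed level of the 23 genes was 186.6 to 287.6 CPM on the high side and 235.5 to 602.6 on the low side. In aged_KO it was lower still, at 69.5 to 112 CPM, so in the test the part of Hopx cannot be told apart from that of MN1. Only 1 of the 23 was at least 2-fold below both other MN1_WT libraries in replicate 3, against 6.9% over all genes.

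**Figure D4:**
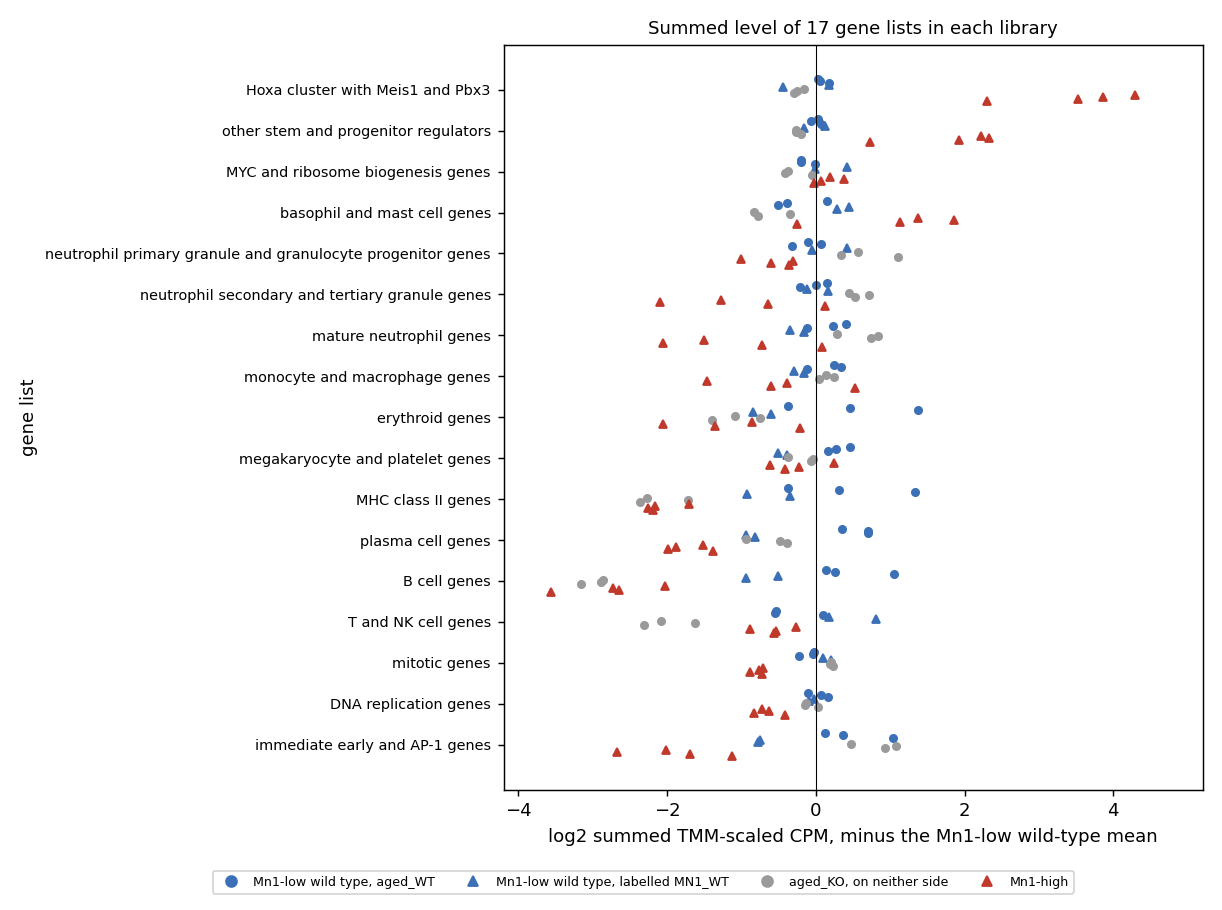
Summed TMM-scaled CPM of 17 gene lists in each library, as log2 difference from the mean of the 5 Mn1-low wild-type libraries (vertical line). Symbols are as in the plot of 10 genes by library; the Hoxa list lies to the right in all 4 Mn1-high libraries (121.7 to 485 CPM against 18.1 to 28), the B cell list to the left in them and in aged_KO, and the neutrophil and monocyte lists spread widely among the red points.

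Of 14 transcription factors of myeloid maturation, 8 fell in MN1_KO and 1 rose. The 8 became 5, 4, 3, 7, 3 and 10 with 1 library left out. Cebpb, which drives emergency granulopoiesis and macrophage genes, was at 15.8, 12.4, 13.4 and 28.4 CPM in the Mn1-high libraries, at 43.2 to 82.8 on the low side and at 131 to 138 in aged_KO. It fell by 2.09 ± 0.34 (edgeR adjusted p = 0.00757).

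Of 15 primary granule and granulocyte progenitor genes, 3 fell and 1 rose, and the 3 became 1, 1, 1, 5, 1 and 6 with 1 library left out. Over all genes 11.8% fell and 14.4% rose, so these counts do not set the list apart. Of 17 secondary and tertiary granule genes none passed in edgeR, where 8 fell without MN1_KO replicate 8 and DESeq2 called 1 higher and 1 lower. Fcnb, a ficolin of myelocytes, was at 99.5, 16.3, 60 and 66.5 CPM against 288 to 440 and fell by 2.74 ± 0.50 (edgeR adjusted p = 0.0111). Rab44, a granule trafficking protein, went the other way, at 1028, 1314, 1459 and 813.8 CPM against 257.7 to 452.2, a rise of 2.02 ± 0.25 (adjusted p = 0.00385). Mmp9, a gelatinase of tertiary granules, was at 834.7, 135.2, 484.1 and 762.9 CPM against 1342 to 2005 without overlap, but did not pass (-1.76 ± 0.57, adjusted p = 0.0617). MN1_WT replicate 3 was at least 2-fold below both other MN1_WT libraries for 16 of the 17 secondary and tertiary granule genes and 10 of the 15 primary granule genes.

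Of 20 mature neutrophil genes, 6 fell and 1 rose in MN1_KO. With 1 library left out the 6 became 2, 3, 2, 6, 1 and 17. Il1b, the inflammatory cytokine, was at 21.5, 8.25, 8.15 and 20.3 CPM against 70.6 to 189 and fell by 3.52 ± 0.51, or 4.11 without MN1_KO replicate 8. Of 24 monocyte and macrophage genes, 10 fell and 1, Lrp1, rose, and the 10 became 8, 4, 6, 9, 5 and 20. Slc40a1, the iron exporter of macrophages and erythroid cells, was at 86.8, 27.4, 40.4 and 42.3 CPM against 175 to 221 and fell by 2.41 ± 0.21 (edgeR adjusted p = 0.00152). Axl, a receptor for dying cells, fell by 1.61 ± 0.21 (adjusted p = 0.00407), from 39.3 to 67.6 CPM on the low side to 32.3, 16.3, 14.8 and 18.2, with 15 to 24.6 in aged_KO.

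Of 10 mast cell and basophil genes, 5 rose and 1 fell in MN1_KO. Ms4a2, the beta chain of the IgE receptor, was at 637, 772, 387 and 199 CPM against 25.4 to 95.2 and rose by 3.76 ± 0.56, or 3.13 without MN1_KO replicate 5. Mcpt4, a protease of connective tissue mast cells, was at 2.68, 2.14, 3.84 and 2.62 CPM against 0 to 0.919, and Gata2 belongs to this list too. Cpa3, Prss34 and Fcer1a were added after their values were seen. Cpa3, mast cell carboxypeptidase, was at 1713, 2813, 1649 and 325 CPM against 58.1 to 341.2, so MN1_KO replicate 8 lay below MN1_WT replicate 2. Prss34, a basophil protease, was lower without overlap, at 168, 167, 16.6 and 19.2 CPM against 305 to 678, but did not pass (-2.53 ± 0.93, edgeR adjusted p = 0.0885). Fcer1a, the alpha chain of the same IgE receptor, was at 22.8, 21.4, 8.58 and 3.84 CPM against 39.4 to 72 and fell by 2.17 ± 0.60 (adjusted p = 0.0385). It was the 1 gene of the list that fell, and with 1 library left out 0, 0, 0, 3, 0 and 1 fell while 5, 4, 4, 5, 5 and 7 rose.

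Of 10 eosinophil genes, 5 fell in MN1_KO and none rose. No member fell without any 1 aged_WT library or without MN1_KO replicate 5, whereas 7 fell without MN1_KO replicate 7 and 8 without MN1_KO replicate 8, and without TMM 3 fell. The summed level was 2556 CPM in MN1_WT replicate 3 and 544.3, 1492 and 138.3 in MN1_KO, against 2833 to 5648 on the low side. Ear2, an eosinophil ribonuclease, was at 36.8, 119 and 23 CPM in MN1_KO and at 241 in MN1_WT replicate 3, against 258 to 685 on the low side and 74.1 to 166 in aged_KO. Its fall of 2.83 ± 0.69 was 3.80 without MN1_KO replicate 7 and lost its call without any 1 aged_WT library or MN1_KO replicate 5. None of the 10 was at least 2-fold below both other MN1_WT libraries in replicate 3.

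Of 23 erythroid genes, 10 fell and none rose in MN1_KO, and the 10 became 7, 5, 5, 9, 3 and 21 with 1 library left out. The summed level of the list was 1900, 827.4, 1355 and 2986 CPM on the high side. It was 1924 and 2265 in MN1_WT replicates 2 and 4, 2666 to 8944 in aged_WT and 1309 to 2052 in aged_KO. Within the MN1 table, 14 of the 23 were lower and 2 higher without overlap, against 21% lower and 21.9% higher over all genes. Tfrc, the transferrin receptor of erythroblasts and dividing cells, was at 101, 89.6, 71.9 and 83.2 CPM against 282 to 393 and fell by 1.99 ± 0.19 (edgeR adjusted p = 0.00186). Of 19 megakaryocyte and platelet genes tested 11 fell. Within the MN1 table, 5 of 18 were lower and 6 higher without overlap, against 21% lower and 21.9% higher over all genes. Pf4, platelet factor 4, was at 1.57 to 3.71 CPM on the high side, at 40.4 to 46.9 in aged_WT but at 3.91 and 7.6 in MN1_WT replicates 2 and 4. It fell by 4.20 ± 0.37 in MN1_KO (adjusted p = 0.00153). In replicate 3, 3 of these genes were at least 2-fold below both other MN1_WT libraries and 6 were above both. The shares over all genes were 6.9% and 10.7%.

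Of 26 mitotic genes, 12 fell and none rose in MN1_KO (median log2 fold change -0.60). The 12 became 4, 2, 7, 9, 5 and 21 with 1 library left out, and 7 without TMM. Over the 9 libraries 17 were lower without overlap, and 25 were within the MN1 table. The summed level was 2775, 2671, 2462 and 2730 CPM in the Mn1-high libraries, 3867 to 5228 on the low side and 5156 to 5312 in aged_KO. Mki67, which encodes the proliferation antigen Ki-67, was at 636.9, 578.4, 570.4 and 502.5 CPM against 936.7 to 1351 and fell by 0.90 ± 0.16 (edgeR adjusted p = 0.00953), a call lost without aged_WT replicate 6. Kif23, a kinesin of cytokinesis, was at 45.8 to 57.8 CPM against 95.8 to 117 and fell by 1.02 ± 0.16 (adjusted p = 0.00622).

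Of 26 DNA replication genes, 9 fell and none rose, and the 9 became 6, 2, 2, 7, 4 and 23. Pcna, the sliding clamp, was at 187, 186, 171 and 236 CPM against 291 to 479 and fell by 1.18 ± 0.19 (edgeR adjusted p = 0.00648). Among 15 cyclins, kinases and inhibitors, 4 fell and 2 rose, or 3 to 6 and 0 to 3 with 1 library left out. The shares over all genes were 11.8% and 14.4%. Ccnd1, cyclin D1, was at 2.85, 1.17, 0.982 and 1.62 CPM against 18.3 to 24.5 and fell by 4.12 ± 0.26 (adjusted p = 0.000783), with 2.33 to 12 in aged_KO. Ccne2, cyclin E2, was at 20.9, 19.6, 21.1 and 14.4 CPM against 48.6 to 58.5 and fell by 1.58 ± 0.18 (adjusted p = 0.00266), with 51.9 to 60 in aged_KO. Cdk6, the kinase that cyclin D binds in progenitors, added after its values were seen, was at 694, 744, 553 and 240 CPM against 113 to 222.

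Of 22 genes of MYC and ribosome biogenesis, 5 rose and none fell, but none was without overlap over the 9 libraries. The 5 became 0, 0, 1, 3, 1 and 14 with 1 library left out. Myc was at 181, 185, 187 and 98.1 CPM on the high side and at 58.4 to 107 on the low side, with MN1_KO replicate 8 below MN1_WT replicate 2. Its rise of 1.31 ± 0.26 was lost without any 1 aged_WT library and without MN1_KO replicate 7. Of 43 cytosolic ribosomal protein genes, 2 fell in MN1_KO, a smaller share than the 11.8% over all genes, and 0, 0, 0, 1, 0 and 21 fell with 1 library left out. Within the MN1 table the direction was the opposite, with 25 of the 43 higher without overlap and none lower, against 21.9% higher over all genes. The summed level was 28230, 32370, 34010 and 37310 CPM on the high side, 27220 and 23500 in MN1_WT replicates 2 and 4, and 39200 to 44360 in aged_WT.

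Immediate early genes, which respond within minutes to signals and to tissue handling, were lower in 13 of 20 cases and higher in none, with a median log2 fold change of -2.03. The 13 became 11, 8, 6, 10, 5 and 16 with 1 library left out. Fos was at 22.3, 8.46, 15.9 and 32 CPM in the Mn1-high libraries, at 335, 459 and 740 in aged_WT and at 119 and 95.2 in MN1_WT replicates 2 and 4. Its fall of 4.75 ± 0.60 was 5.40 without MN1_KO replicate 8. Junb was at 72.2, 47.5, 80 and 83.8 CPM against 171 to 589 and fell by 2.82 ± 0.27 (edgeR adjusted p = 0.00197). The aged_KO libraries were at 458 to 758 for Fos, and the summed level of the list was 3689 to 5616 CPM in them against 414.8 to 1216 on the high side. Within the low side the MN1 table was below the aged table, at 1584 and 1547 CPM against 2891 to 5448, so the deposited table moved with this list. The part of handling was not tested.

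Of 27 type I interferon response genes, 6 rose and none fell, with 7 higher without overlap, where 14.4% of all genes rose and 14.9% were higher without overlap. With 1 library left out 4, 1, 3, 6, 3 and 8 rose, and 4 fell without MN1_KO replicate 8. Mx2, an antiviral GTPase, was at 21, 15.7, 10.9 and 10.5 CPM against 2.34 to 3.79 and rose by 1.87 ± 0.24 (edgeR adjusted p = 0.00393), a call lost in 1 fit of all 12 libraries. Tap2, a peptide transporter, was the 1 of 12 MHC class I genes that passed, at 217 to 243 CPM against 122 to 174. It rose by 0.84 ± 0.13 (adjusted p = 0.00656), and lost its call without aged_WT replicate 6.

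Of 12 BCL2 family genes 2 fell, near the share of 11.8% over all genes, and 5 fell without MN1_KO replicate 8. Mcl1, which protects progenitors from apoptosis, was at 314, 214.4, 279.7 and 333.6 CPM against 496.3 to 707.8 and fell by 1.23 ± 0.21 (edgeR adjusted p = 0.0078). Bcl2l11, which encodes the killer protein BIM, was at 15.9 to 18.2 CPM against 27.9 to 41.5 and fell by 1.03 ± 0.17 (adjusted p = 0.00814). Of 14 adhesion and homing genes, 1 rose and 3 fell, and the 3 became 1, 2, 2, 3, 0 and 8. Itga5, the fibronectin receptor chain, rose by 0.94 ± 0.14 (adjusted p = 0.00553), to 57.8 to 66.3 CPM from 30.4 to 50.2 on the low side. Cxcr4, which holds cells in the marrow, was at 139, 122, 139 and 216 CPM against 245 to 412. Its fall of 1.23 ± 0.25 was lost without any 1 aged_WT library and without MN1_KO replicate 7.

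Of 15 chromatin cofactors tied to the Hoxa programme, 1 rose and 2 fell. Mllt3, which reads acetylated histones in stem cells, was at 111, 108, 71.7 and 32.7 CPM against 19.5 to 30.4, and its rise of 1.53 ± 0.42 was lost without any 1 library other than MN1_KO replicate 8. The Polycomb genes Ezh2 (-0.57 ± 0.15) and Eed (-0.63 ± 0.13) fell, calls that were lost without any 1 aged_WT library and without MN1_KO replicate 7. Kdm1a, a histone demethylase, did not pass at 0.35 ± 0.16. Among metabolic lists, 7 of 25 cholesterol and fatty acid genes fell and 1 rose (2, 2, 5, 6, 2 and 10 fell with 1 library left out), with the master factor Srebf2 at 85.7, 53.1, 75.6 and 60.6 CPM against 118 to 144 (-0.99 ± 0.16, edgeR adjusted p = 0.00739). Of 33 respiratory chain genes 5 fell, or 0, 0, 1, 0, 0 and 28 with 1 library left out. Of 23 glycolysis genes 2 rose and 2 fell, and none did without any 1 aged_WT library or MN1_KO replicate 7, while of 18 p53 targets 2 rose and 2 fell, or 1 to 4 and 0 to 5. Over all genes 14.4% rose and 11.8% fell. The counts for chromatin cofactors, respiratory chain genes, glycolysis genes and p53 targets were near or under these shares.

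Markers of marrow cells other than blood cells moved in both directions. Of 18 endothelial genes, 3 rose and 8 fell (5, 4, 4, 7, 6 and 9 fell with 1 library left out), and their sum was 222 to 430 CPM on the high side and 192 to 212 on the low side. Cdh5, the endothelial cadherin, was at 2.16, 0.568, 1.07 and 1.53 CPM against 3.87 to 7.48 and fell by 2.75 ± 0.39 (edgeR adjusted p = 0.00497), whereas Flt1, a VEGF receptor, was at 9.46, 33.1, 37.5 and 17.8 CPM against 2.77 to 4.15 and rose by 3.33 ± 0.31 (adjusted p = 0.00185). Of 15 stromal and osteolineage genes 2 rose and 2 fell, near the shares of 14.4% and 11.8% over all genes. The counts were 1 to 3 and 1 to 5 with 1 library left out. Sums of these genes were 216 to 236.5 CPM on the high side against 173 to 361.2 on the low side. Their part in the results was not tested.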

How the data were processed

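Whole bone marrow RNA was sequenced from TruSeq Stranded mRNA libraries, per the labels' protocols. The authors deposited expected counts per gene (RSEM 1.2.28, Bowtie2 2.3.4.3, mm10, per the submitters' processing notes) in 2 tables of 24444 genes; the annotation is not given in the sources used here. Between 5.2 and 6.84% of the genes in a library had fractional values, which were rounded. Library totals were 16544407 to 28409046.

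Groups came from the labels and sides from Mn1 CPM. TMM factors for the printed CPM were computed over all 12 libraries, and those of each edgeR fit over the libraries in that fit. The test was edgeR 4.0.16's quasi-likelihood fit of MN1_KO and aged_WT (6 libraries) on genes kept by filterByExpr, checked on simulated data; SE is the log2 fold change over the root of F. DESeq2 1.42.0, limma-trend 3.58.1, no filter, no TMM, 1 fit of all 12 libraries and leaving out each library were alternatives. Named genes are the markers, all measured Hoxa and heptad genes, up to 15 per direction, and up to 4 per list by smallest p (2 where fewer than 3 passed). A few of the genes so chosen are not reported here. Members, the 39 gene lists and this rule were chosen with earlier results of these data known. Promoters came from a RefSeq table for GRCm38.p6.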

Additional observations from a re-analysis of the deposited data

Results flagged for a closer look

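Summed levels of the 39 gene lists were examined within the 4 Mn1-high and the 5 Mn1-low wild-type libraries, 78 groups in all, and 4 held a library far from the others of its group (Dixon's test on log2 values). Chance flags about 1 group in 20. On the low side, the library labelled MN1_WT replicate 4 had a sum of 18.1 CPM for the Hoxa cluster with Meis1 and Pbx3, where the other 4 had 25.2 to 28. On the high side, MN1_KO replicate 8 stood above the others for respiratory chain genes, at 5437 CPM against 3832 to 4048. MN1_WT replicate 3 stood above the others for MHC class II genes, at 423.7 CPM against 287.8 to 307.4. MN1_KO replicate 8 stood below the others for sex-specific genes, at 595.6 CPM against 3422 to 4022.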

How the results depend on the processing

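No paired analysis was possible because MN1_KO and aged_WT share only the replicate number 7. Leaving out 1 library at a time gave 1285 to 8152 changed genes, 628 to 4218 higher and 657 to 3934 lower. Leaving out a library can only keep or raise the count of genes without overlap, so the direction of that change carries no information. Over the 9 libraries, leaving out MN1_KO replicate 8 gave 3770 higher and 3420 lower, and for the MN1 table alone these were 4756 and 4604. Over the other libraries left out, the lowest of these 4 counts were 2058, 1811, 3056 and 2956. Asking for a 2-fold difference besides left 1011 higher and 827 lower. MN1_WT replicate 3 was at least 4-fold above both other libraries for 443 genes and below both for 57, and without TMM it was at least 2-fold below both for 557. DESeq2 called 4717 genes and limma-trend 3561. DESeq2 also gave more falling members of some lists: 15 ribosomal protein, 16 DNA replication, 11 T and NK cell, 9 respiratory chain, 8 eosinophil and 7 antigen genes. Directions reversed for Fli1, at 0.15 without TMM (-0.17 to 0.082 with 1 library left out), and for Lyl1, at -0.69 to 0.033 with 1 library left out; the cause was not tested. Over all named genes and alternatives, 1716 values kept direction and side of the threshold, 198 lost the call and 19 gained it. With 3 libraries a group, small changes are not resolved, and 1 library, MN1_KO replicate 8, sets much of the spread.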
